A study of Mus musculus with 6 samples.

Results

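The Hox cluster genes comprise 38 homeobox genes in 4 clusters, and they were examined as listed members among the 21951 protein-coding genes of the GENCODE M21 annotation. H3K4me3, the trimethylation of lysine 4 of histone H3, was mapped by ChIP-seq in a pair of mouse lymphoid progenitor lines, with 2 H3K4me3 ChIP libraries and 1 input library for each line. Scid.adh.2C2 is a T cell progenitor (pro-T) line of CB17-Prkdc<scid> background, a subclone of a line that arose from a spontaneous thymic tumor. The other line, called the pre-B line here, is Abelson-transformed, and the labels call it a B-cell progenitor. Each group is 1 cell line, so that differences between the lines cannot be told apart from differences between clones. The authors deposited 1 peak list per line that combines the libraries, with 15513 peaks for Scid.adh.2C2 and 19604 peaks for the pre-B line. The lists hold neither replicate values nor read depth, so that no replicate error can be stated and no test between the lines was possible, and a promoter without a peak is one at which no peak was listed. Some gene-dense stretches hold no peak in either list, and whether peaks are missing from the lists as used here is not known, which limits every count of unmarked genes and every peak-free stretch. Promoters were taken as 2500 bp to each side of an annotated transcription start site (TSS), and a gene was called marked when a peak overlapped any of its promoters by at least 1 bp.

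Hox genes encode homeodomain transcription factors that assign position along the body axis. Their order along each cluster matches their order of expression from anterior to posterior, and members at the same place in different clusters are paralogs with the same number. In blood formation, Hox genes of the Hoxa and Hoxb clusters are used mainly by stem and early progenitor cells, and they are opened by the MLL family of H3K4 methyltransferases and closed by Polycomb complexes. H3K4me3 marks the start sites of active genes, and in stem cells also those of silent genes with CG-rich promoters.

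Of the 38 Hox genes, 2 were marked in Scid.adh.2C2, Hoxc6 and Hoxd12, and 2 were marked in the pre-B line, Hoxa3 and Hoxa7. The share was 5.26% in either line (Wilson 95% interval 1.46 to 17.3%, counting error only, with neighbouring genes not independent). Among all protein-coding genes, 45.5% were marked in Scid.adh.2C2 and 48.2% in pre-B cells. No Hox gene was marked in both lines, beside 42.2% of all protein-coding genes, and 34 were marked in neither, beside 48.6% of all. The count in both lines became 2, Hoxd3 and Hoxd4, with a window of 5000 bp or with peaks anywhere in the gene body. These genes rest there on the same shared peak, at Hoxd3os1. Marking in Scid.adh.2C2 only was found for 2 of 38 Hox genes and for 3.28% of all protein-coding genes, and marking in the pre-B line only for 2 of 38 Hox genes and for 5.96% of all. The genes marked in 1 line belonged to different clusters, Hoxc and Hoxd in pro-T cells and Hoxa in pre-B cells.

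The sequences under these peaks are shown because the marked sites differed in CG content and in their place relative to start sites. Each is a run of 200 bases around the peak summit on the plus strand of GRCm38.p6 (mm10), and the capitals mark CG dinucleotides. The last sequence, for contrast, holds the 200 bases before the TSS of Hoxa4 in the direction of the gene, since Hoxa4 had the most CG of all Hox promoters and no peak in either line.
Hoxa3 peak of the pre-B line (chr6:52212749-52212948): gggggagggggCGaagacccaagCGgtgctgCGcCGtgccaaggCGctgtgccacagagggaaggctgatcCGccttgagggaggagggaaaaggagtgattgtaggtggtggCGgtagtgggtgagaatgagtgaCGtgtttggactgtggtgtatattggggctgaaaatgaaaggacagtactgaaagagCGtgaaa
Hoxa7 peak of the pre-B line (chr6:52221907-52222106): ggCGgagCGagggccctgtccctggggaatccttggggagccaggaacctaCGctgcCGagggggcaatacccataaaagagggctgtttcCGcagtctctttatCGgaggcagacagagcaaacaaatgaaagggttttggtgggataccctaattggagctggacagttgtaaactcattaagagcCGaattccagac
Hoxc6 peak of Scid.adh.2C2 (chr15:102999008-102999207): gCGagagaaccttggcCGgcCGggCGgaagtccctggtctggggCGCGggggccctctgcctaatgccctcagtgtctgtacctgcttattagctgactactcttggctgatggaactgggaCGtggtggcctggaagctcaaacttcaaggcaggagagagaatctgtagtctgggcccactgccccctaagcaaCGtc
Hoxd12 peak of Scid.adh.2C2 (chr2:74672138-74672337): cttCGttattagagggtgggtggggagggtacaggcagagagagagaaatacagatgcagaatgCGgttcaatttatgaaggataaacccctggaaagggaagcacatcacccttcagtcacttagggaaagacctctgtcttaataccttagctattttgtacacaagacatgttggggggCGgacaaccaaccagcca
Hoxb4-Hoxb5 intergenic peak of Scid.adh.2C2 (chr11:96311295-96311494): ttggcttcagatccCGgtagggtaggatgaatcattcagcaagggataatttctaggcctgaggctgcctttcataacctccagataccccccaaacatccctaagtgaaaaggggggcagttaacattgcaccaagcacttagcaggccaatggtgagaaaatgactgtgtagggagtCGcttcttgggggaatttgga
Hoxd3os1 peak of Scid.adh.2C2 (chr2:74716019-74716218): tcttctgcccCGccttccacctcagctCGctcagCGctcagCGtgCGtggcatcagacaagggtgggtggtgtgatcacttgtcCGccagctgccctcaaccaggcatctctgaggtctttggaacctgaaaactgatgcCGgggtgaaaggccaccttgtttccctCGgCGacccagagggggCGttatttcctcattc
Hoxa4 promoter without a peak (chr6:52191754-52191953, minus strand): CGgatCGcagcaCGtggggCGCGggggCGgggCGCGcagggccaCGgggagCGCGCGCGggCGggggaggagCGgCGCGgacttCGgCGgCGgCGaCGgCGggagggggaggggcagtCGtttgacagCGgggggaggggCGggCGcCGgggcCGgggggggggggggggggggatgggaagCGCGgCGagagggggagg
The printed windows of the Hoxa3, Hoxa7, Hoxc6 and Hoxd3os1 peaks held 9, 7, 8 and 10 CG, those of the Hoxd12 and intergenic Hoxb peaks held 3 and 2, and the Hoxa4 promoter held 32. The unmarked Hoxa4 promoter was chosen for its CG count. Its window lies before a TSS and the others lie around peak summits, so that its higher count is an illustration only.

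In the Hoxa cluster, only the pre-B line had peaks. The cluster spans 98.5 kb from Hoxa2 to Hoxa13 on chromosome 6, and all 10 listed genes run on the minus strand. The Hoxa3 peak of the pre-B line (chr6:52212602-52213360) was 759 bp wide, with an 11.2-fold enrichment over background, a −log10 q of 32.8 and an IDR score of 727. It contained the Hoxa3 TSSs at positions 52213115 and 52213336, with the summit 266 bp downstream of the former within the Hoxa3 intron, and it also overlapped the promoter of the predicted gene Gm28308 and exons of the antisense transcript Hoxaas3. Hoxa3, a gene known for its role in thymus formation, has further TSSs at 52183855 and 52184874, over 27 kb away along the gene, which had no peak. The Hoxa7 peak (chr6:52221475-52222291) was 817 bp wide, with a 9.41-fold enrichment, a −log10 q of 24.6 and an IDR score of 1000. It covered the TSS of the longest annotated Hoxa7 transcript at 52221854, with its summit at -153 bp (upstream) in the gap between Hoxa7 and Hoxa9, whereas the other protein-coding TSSs at 52218711, 52217505 and 52217452 lay outside the window with the summit at -3296, -4502 and -4555 bp. Hoxa6 and Hoxa9, on either side of the Hoxa3 and Hoxa7 peaks, fell just outside the window, with 3880 and 3898 bp between their nearest TSS and a peak.

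The other Hoxa genes, Hoxa2, Hoxa4, Hoxa5, Hoxa10, Hoxa11 and Hoxa13, were unmarked in the pre-B line at distances of 8.02 kb for Hoxa5 to 47.8 kb for Hoxa2. Hoxa9 and Hoxa10, the posterior genes that are most often tied to leukemia, thus had no promoter peak in either line. In Scid.adh.2C2, the nearest peak lay 213 kb (Hoxa13) to 309 kb (Hoxa2) from the Hoxa genes. All 10 Hoxa genes lay in a stretch of 1001 kb without a pro-T peak. In the same line, the flanking genes Skap2 and Snx10, an adaptor protein and a sorting nexin, were unmarked too, while the pre-B line had a 26.5-fold peak at Skap2 and a 10.5-fold peak at Snx10.

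In the Hoxb cluster, only the pro-T line had a peak, and no Hoxb gene was marked. The peak (chr11:96311120-96312177) was 1058 bp wide, with a 13.05-fold enrichment, a −log10 q of 32.4 and an IDR score of 1000, and it was intergenic between Hoxb5 and Hoxb4. It lay 6.09 kb from the TSS of Hoxb4, a regulator of hematopoietic stem cell self-renewal, and 7.61 kb from that of Hoxb5. Its nearest TSS was that of the antisense transcript Hoxb5os, with the summit at -4485 bp, so that it belonged to no annotated promoter window. The 10 Hoxb genes lay at a median of 25.4 kb from a pro-T peak, from 6.09 kb for Hoxb4 to 117 kb for Hoxb13. In the pre-B line, the distances ran from 118 kb for Hoxb13 to 289 kb for Hoxb1, and all 10 genes lay in 1 peak-free stretch of 700 kb.

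In the Hoxc cluster, the pro-T line had 1 peak and the pre-B line none. The Hoxc6 peak (chr15:102998641-103000079) was 1439 bp wide, with a −log10 q of 50.1 and an IDR score of 1000, and its 17.5-fold enrichment was the highest among the 5 pro-T peaks in or within 10 kb of a Hox cluster. Hoxc6 has 3 annotated TSSs. The summit lay 851 bp downstream of the TSS at 102998257 and at -1421 bp from that at 103000529, which both belong to transcripts annotated as non-coding, and at -10465 bp from the protein-coding TSS at 103009573. The peak therefore marked Hoxc6 only through its upstream start sites, within introns of Hoxc6 and of the long Hoxc5 transcript and across an exon of an upstream Hoxc6 transcript. Hoxc8, Hoxc5 and Hoxc4 were unmarked with 6.75, 13.7 and 18.9 kb to the peak, and the posterior genes Hoxc9, Hoxc10, Hoxc11, Hoxc12 and Hoxc13 with 21.6 to 77.5 kb. In the pre-B line, the 9 Hoxc genes lay 128 to 206 kb from the nearest peak, within a peak-free stretch of 414 kb. Hotair, the long non-coding RNA between Hoxc11 and Hoxc12, was unmarked in both lines.

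The Hoxd cluster was the only one with peaks in both lines, and it held the only peak that the lines shared. Scid.adh.2C2 had a peak of 1332 bp between Hoxd13 and Hoxd12 (chr2:74671842-74673173) with an 11.3-fold enrichment, a −log10 q of 26.1 and an IDR score of 633. Its near edge lay 1840 bp from the Hoxd12 TSS at 74675013 and its summit at -2775 bp, so that it covered 661 bp of the Hoxd12 promoter at its outer edge, while Hoxd13 was 3532 bp away and remained unmarked. A further pro-T peak of 654 bp lay before the cluster between Evx2 and Hoxd13 (chr2:74663117-74663770), with an 11.5-fold enrichment and its summit at -5004 bp from the Hoxd13 TSS. Neither was listed in the pre-B line. Hoxd12 and Hoxd13 are the posterior genes that shape limbs and digits.

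The shared peak lay at the start of Hoxd3os1, an antisense transcript within the long transcripts of Hoxd3 and Hoxd4. In Scid.adh.2C2 it was 415 bp wide (chr2:74715962-74716376), with a 9.89-fold enrichment, a −log10 q of 35.8 and an IDR score of 1000. In the pre-B line it was 273 bp wide (chr2:74715965-74716237), with a 9.10-fold enrichment, a −log10 q of 22.2 and an IDR score of 1000, and all its 273 bp fell inside the pro-T peak. Both covered the Hoxd3os1 TSS at 74716130, and the summits lay 11 bp and 64 bp downstream of it. The windows of Hoxd4 and Hoxd3 ended short of it, with 4033 and 4035 bp to the peak in Scid.adh.2C2 and 4036 and 4038 bp in the pre-B line. The shared peak was narrow, at the 7.66th percentile of widths in the pro-T list and the 0.587th in the pre-B list. Hoxd1, Hoxd8, Hoxd9, Hoxd10 and Hoxd11 were unmarked in both lines, at 6.38 kb for Hoxd11 to 46.6 kb for Hoxd1 in Scid.adh.2C2 and at 10.8 kb for Hoxd8 to 46.7 kb for Hoxd1 in the pre-B line.

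**Figure D1:**
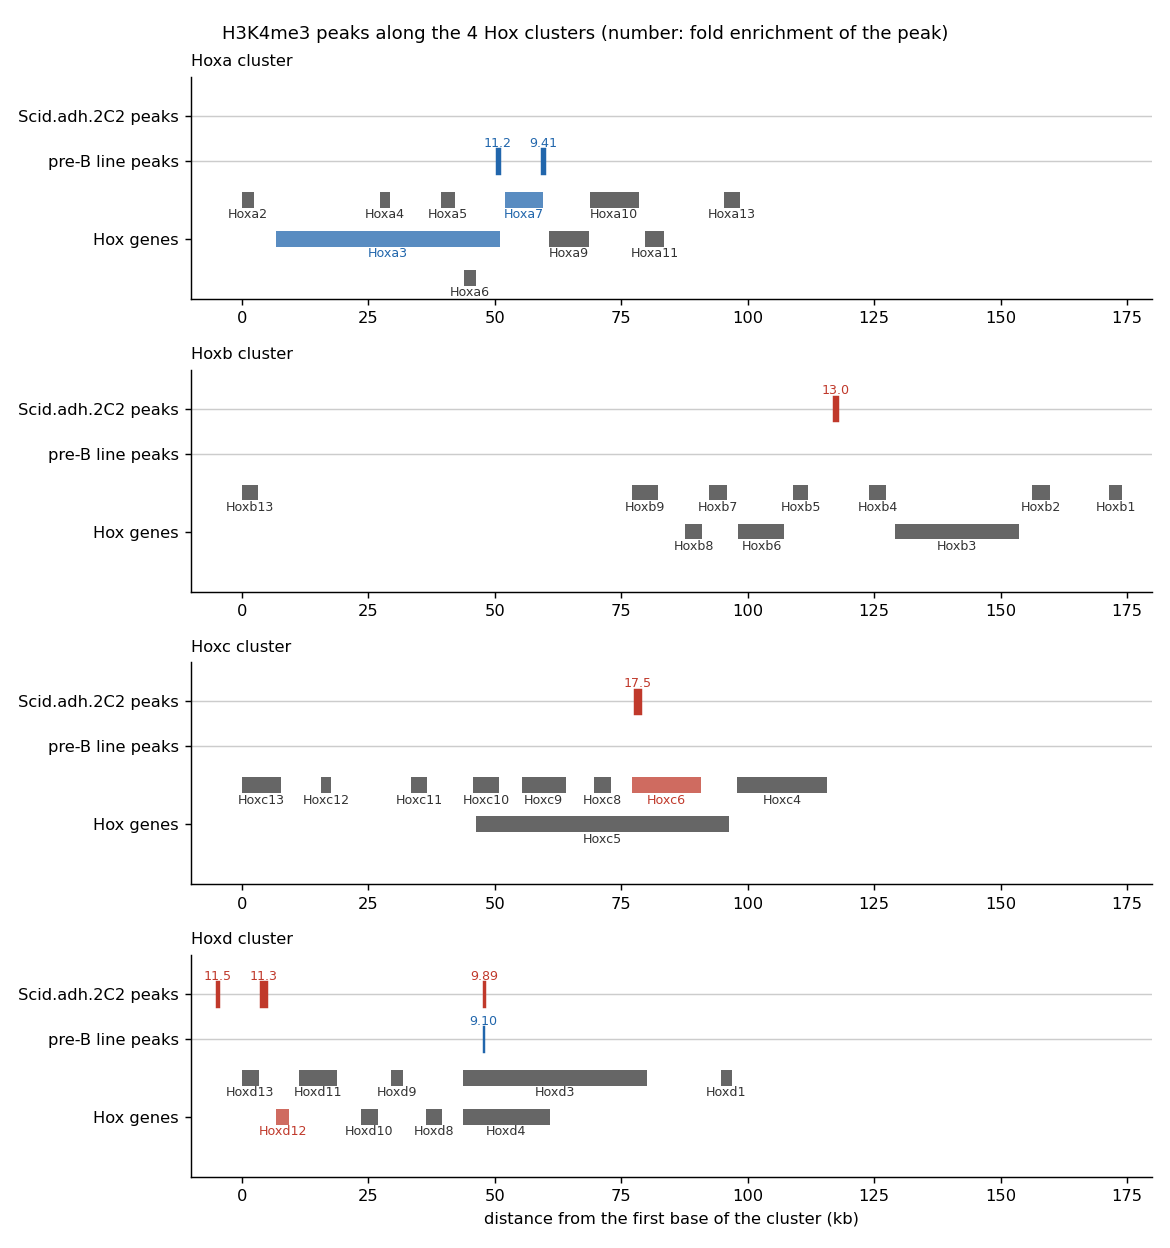
Map of the 4 Hox clusters, with the distance from the first base of each cluster in kb on the x axis, the listed genes as bars and the peaks of each line above them, labelled with their fold enrichment (red, Scid.adh.2C2 or a gene marked there; blue, the pre-B line or a gene marked there; grey, genes marked in neither). The Hoxa peaks were found in the pre-B line, the Hoxb and Hoxc peaks in Scid.adh.2C2, and the peak at 9.89-fold and 9.10-fold in Hoxd is the one that the lines shared.

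By place on the body axis, 1 of 11 anterior genes (paralog groups 1 to 4) was marked in either line, Hoxa3 in the pre-B line. Of 11 central genes (groups 5 to 8), Hoxc6 was marked in Scid.adh.2C2 and Hoxa7 in the pre-B line, and of 16 posterior genes (groups 9 to 13), Hoxd12 was marked in Scid.adh.2C2. The 4 marked genes belonged to 4 different paralog groups, and no marked gene had a marked paralog. How often 4 genes would be spread in this way by chance was not computed. The group 3 genes Hoxb3 and Hoxd3, the group 6 genes Hoxa6 and Hoxb6, the group 7 gene Hoxb7 and the group 12 gene Hoxc12 were all unmarked in both lines. This held for the window of 2500 bp only. With a window of 5000 bp, Hoxd3 was marked in both lines and Hoxa6 in the pre-B line, so that Hoxa3 and Hoxc6 had marked paralogs. With peaks anywhere in the gene body, Hoxa3 and Hoxd3 were both marked.

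The Hox peaks ranked low in their lists. The 5 pro-T peaks in or within 10 kb of a cluster had enrichments of 9.89-fold to 17.5-fold, beside a median of 20.3-fold over all pro-T peaks and of 24.6-fold over those in promoters, and they stood between the 22.8th and 42.7th percentile of the list. The 3 pre-B peaks had 9.10-fold to 11.2-fold, beside medians of 15.4-fold and 19.3-fold, and stood between the 21.2nd and 32.6th percentile. By enrichment, the Hoxc6 peak ranked 8883 of 15513 and the Hoxd12 peak 11266, and the Hoxa3 and Hoxa7 peaks ranked 13216 and 15026 of 19604. All 8 peaks were narrower than the median of their list, which was 1542 bp in Scid.adh.2C2 and 1590 bp in pre-B cells. When the pre-B list was shortened to as many peaks as the pro-T list by −log10 p, none of its peaks in the clusters remained, and the count of Hox genes marked in the pre-B line became 0.

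**Figure D2:**
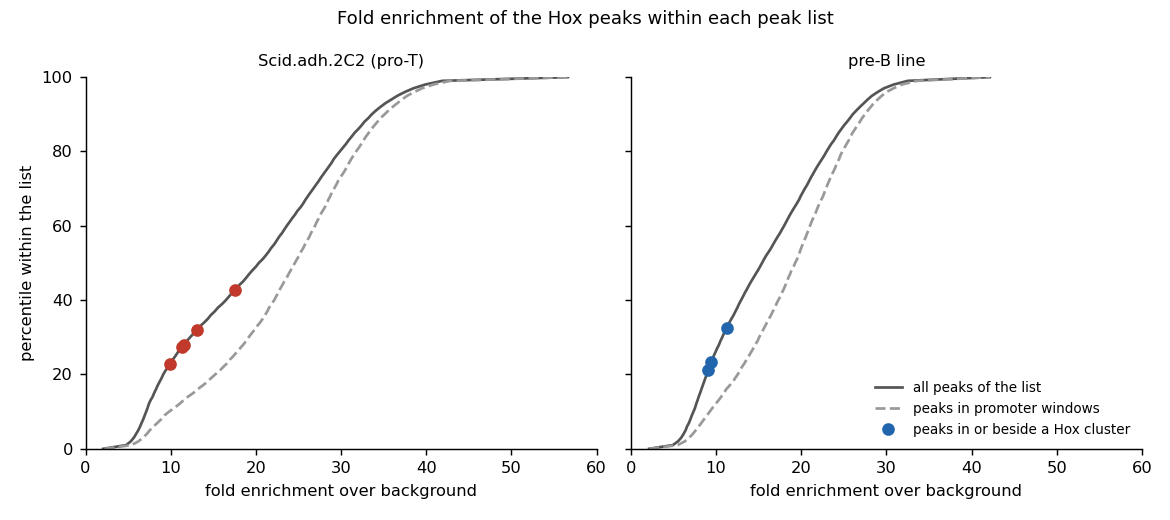
Fold enrichment over background of the peaks in or within 10 kb of a Hox cluster (points), on the curve of the percentile within all peaks of the same list (solid line) and beside the curve for peaks in promoters (dashed line), for Scid.adh.2C2 and the pre-B line. All points lie below the 50th percentile, with the highest at 17.5-fold in Scid.adh.2C2 and 11.2-fold in pre-B cells.

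Peak coverage differed between clusters and lines. Of the 485 kb of the 4 clusters, peaks covered 4244 bp (0.875%) in Scid.adh.2C2 and 1849 bp (0.381%) in the pre-B line, beside 0.947% and 1.32% of the genome. By cluster, coverage was 1.60% of Hoxa in the pre-B line and 0% in Scid.adh.2C2, 0.608% of Hoxb and 1.24% of Hoxc in Scid.adh.2C2 and 0% of both in the pre-B line, and 1.80% of Hoxd in Scid.adh.2C2 and 0.282% in pre-B cells. Within the promoter windows of Hox genes, 0.795% and 0.596% of the bases lay under a peak in Scid.adh.2C2 and the pre-B line, beside 9.69% and 12.0% of the promoter windows of all protein-coding genes. Thus, the clusters together had about the coverage of the genome at large in pro-T cells and less in pre-B cells. Hoxc and Hoxd in pro-T cells and Hoxa in pre-B cells were above the genome of the same line, each through 1 or 2 peaks. This depended on the peaks kept. Hoxd in pro-T cells fell to 415 covered bp with peaks at an IDR score of 1000 only. Hoxa in pre-B cells fell to 0 with equal numbers of peaks in both lists.

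Most unmarked Hox genes lay over 10 kb from the nearest peak, as did most other unmarked genes. In Scid.adh.2C2, 29 of 36 unmarked Hox genes (80.6%) were over 10 kb and 11 (30.6%) were over 100 kb away, beside 90.7% and 48.0% of all unmarked protein-coding genes. In the pre-B line, 31 of 36 (86.1%) were over 10 kb and 19 (52.8%) over 100 kb away, beside 89.8% and 48.0% of all unmarked genes. Thus, in pro-T cells both shares were lower for unmarked Hox genes than for unmarked genes at large, and in pre-B cells they were close. Neighbouring genes share their nearest peak, so that these shares rest on few peaks and the genes are not independent. The 11 pro-T genes over 100 kb away were the 10 Hoxa genes and Hoxb13, and the 19 in the pre-B line were the Hoxb and Hoxc genes. Among all protein-coding genes, 45.5% were marked in Scid.adh.2C2, 48.2% in pre-B cells and 42.2% in both. Of the 16 protein-coding genes that border the clusters, with 2 on each side of each cluster, 9 were marked in Scid.adh.2C2 and 11 in pre-B cells, and 9 were marked in both. These 9 were Hibadh, Snx11, Calcoco1, Atp5g2, Smug1, Cbx5, Lnpk, Mtx2 and Hnrnpa3, with 21.6-fold to 32.3-fold enrichments in Scid.adh.2C2 and 16.6-fold to 26.5-fold in the pre-B line, all above the Hox peaks of the same list. The other unmarked neighbours were Evx1 and Evx2, homeobox genes at the posterior ends of Hoxa and Hoxd, and Ttll6, Calcoco2 and Skap1 beside Hoxb. Among the 41 other annotated genes inside the clusters, including 7 microRNA genes such as Mir10a, Mir10b, Mir196b and Mir615, Gm28308 and Hoxd3os1 had a promoter peak. Most of the 41 are not protein-coding, and the share of marked genes among all genes of such types was not computed. Whether this count is low is therefore not known.

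**Figure D3:**
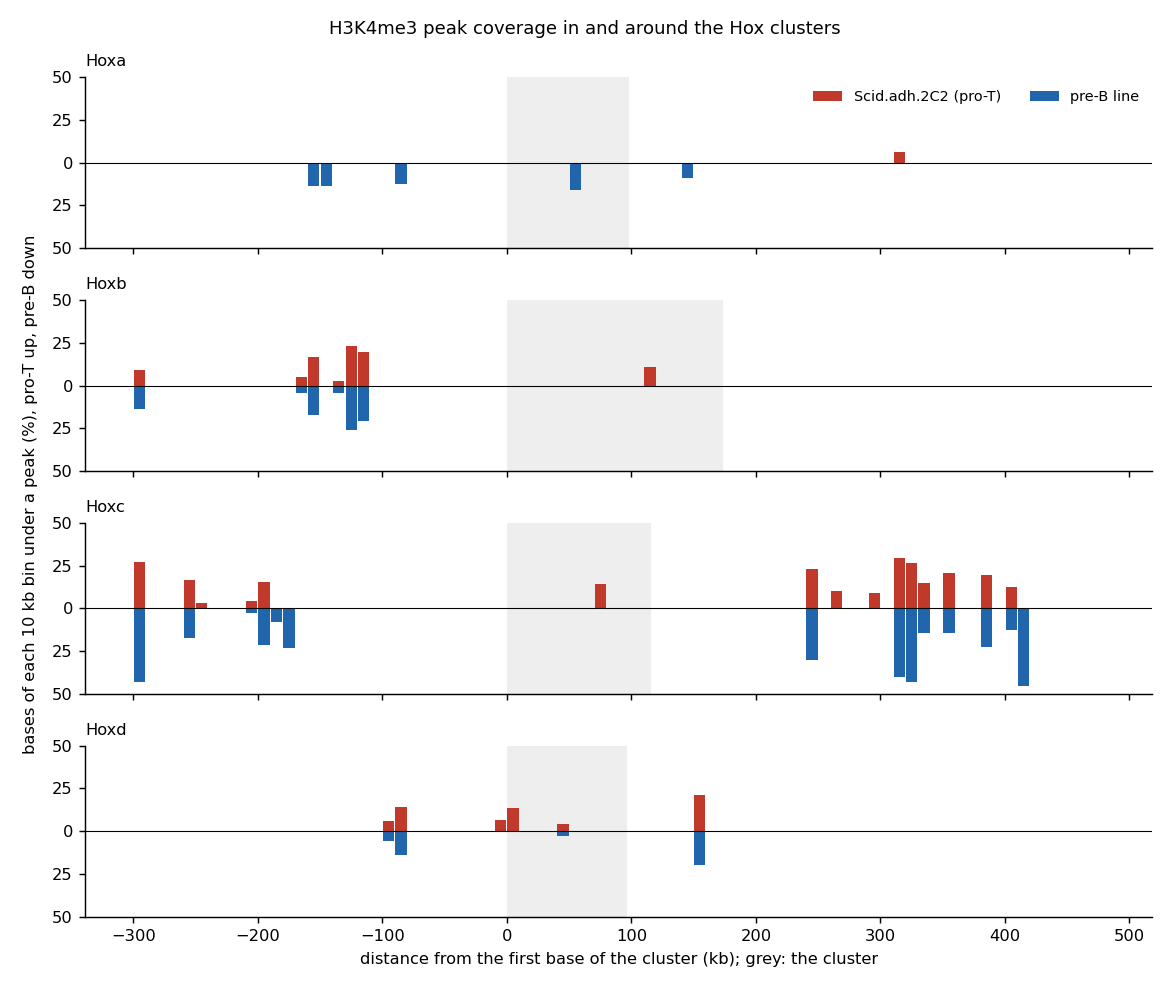
Share of each 10 kb bin that lay under H3K4me3 peaks, from 300 kb before to 300 kb after each Hox cluster, with Scid.adh.2C2 drawn upward and the pre-B line downward from 0 and the cluster shaded grey. The fullest bin inside Hoxa of the pre-B line reached 15.8%, above the 13.7% of the fullest bin of its own flanks. In Hoxc of Scid.adh.2C2 the fullest bin reached 14.4%, beside 29.6% in the fullest bin of its flanks.

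Hox genes held at least 15 promoter CG more often than all protein-coding genes, while the medians were close. In the 300 bases from 250 before to 50 after a TSS, taking the TSS with the most CG for each gene, Hox genes had a median of 19 CG, from 8 at Hoxb2 to 47 at Hoxa4, beside a median of 18 over all protein-coding genes. At least 15 CG were held by 30 of 38 Hox genes (78.9%) and by 56.1% of all. At 35 CG or more the order was reversed, with 4 of 38 Hox genes beside 3619 of 21938 protein-coding genes. The RefSeq promoters of the same length, 24 for 22 Hox genes, had a median of 14.5 CG, beside 7 over all 32851. At 15 CG or more, 69.7% of 12300 protein-coding genes were marked in Scid.adh.2C2 and 72.5% in pre-B cells. Of the 30 Hox genes at this level, Hoxc6 alone was marked in Scid.adh.2C2 and Hoxa3 and Hoxa7 in the pre-B line. The richest Hox promoters, with 47 CG at Hoxa4, 45 at Hoxa13, 37 at Hoxd13 and 36 at Hoxd8, were unmarked in both lines, and the marked Hoxd12 had 13.

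**Figure D4:**
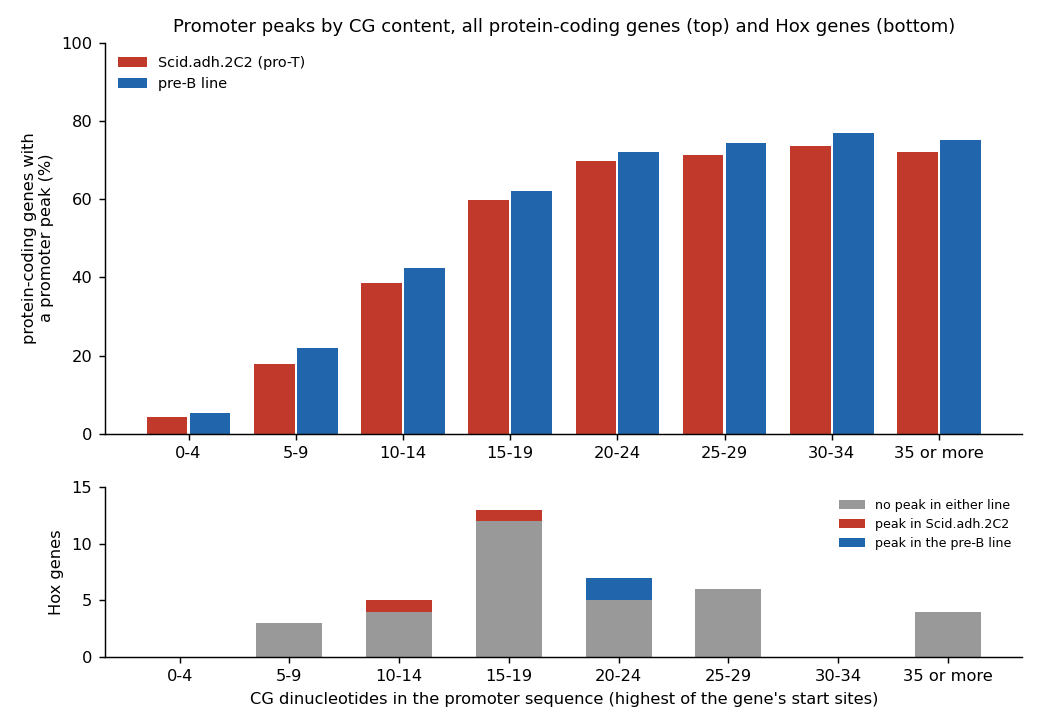
Top, share of protein-coding genes with a promoter peak in each line (%, y axis) by the number of CG in the promoter sequence (x axis). Bottom, number of Hox genes in the same bins, split by marking. The share of all genes rose from 4.17% to 72.1% in Scid.adh.2C2 and from 5.33% to 75.1% in the pre-B line between the lowest and the highest bin, and all 4 Hox genes in the highest bin were unmarked.

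Motifs related to Hox binding were searched on both strands as TGATTNAT, the composite site of Hox and Pbx proteins, and TGACAG, the Meis site. TATAAA, the TATA box, was searched in the same way. Of the 8 windows of 300 bases around the Hox peak summits, only the intergenic Hoxb peak held TGATTNAT, with 1 match, and none held TGACAG or TATAAA. In the windows of all peaks, TGATTNAT was found in 2.29% and 2.76%, TGACAG in 19.5% and 19.9% and TATAAA in 9.73% and 12.1%, for Scid.adh.2C2 and the pre-B line. RefSeq promoters of GRCm38.p6 were matched for 22 of the 38 genes, with 24 promoters. TGATTNAT was found in those of Hoxa2 and Hoxd11, TGACAG in those of Hoxa2 and Hoxa3, and TATAAA in 4, those of Hoxa10, Hoxb8, Hoxd4 and Hoxd13, beside 3.22%, 19.2% and 13.6% of all 32851 RefSeq promoters. A match describes the letters only.

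The partners and regulators of Hox proteins were examined next. TALE homeodomain proteins, which bind DNA together with Hox proteins, were marked for 4 of 9 genes in Scid.adh.2C2 and 5 of 9 in pre-B cells. These counts were near the shares of all protein-coding genes, 45.5% and 48.2%. Pbx2, Pbx3, Pbx4 and Pknox1 were marked in both lines, with 27.4-, 27.3-, 37.7- and 23.6-fold enrichments in Scid.adh.2C2 and 24.8-, 20.8-, 27.4- and 19.2-fold in the pre-B line. Meis3 had a 7.73-fold peak in the pre-B line only. Meis1, a partner well known from leukemia, was unmarked in both lines together with Meis2 and Pknox2, and the nearest peak in either line lay 900 kb from Meis1.

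Of the 5 genes of the MLL and menin axis, 4 were marked in both lines, beside 42.2% of all protein-coding genes. Kmt2a, which encodes the methyltransferase MLL1, had 40.3-fold and 27.5-fold peaks in Scid.adh.2C2 and the pre-B line, and its relative Kmt2b had 34.2-fold and 31.7-fold peaks. Psip1, which tethers menin to chromatin, had 22.4-fold and 12.2-fold peaks, and the H3K79 methyltransferase gene Dot1l had 29.3-fold and 15.4-fold peaks. Men1, which encodes menin, was unmarked in both lines, in a stretch of 697 kb with 13 protein-coding genes and no listed peak in either line, and whether a mark was missed there was not tested. All 10 Polycomb genes were marked in Scid.adh.2C2 and 9 in pre-B cells, beside 45.5% and 48.2% of all protein-coding genes. The exception was Eed, a core subunit of PRC2, at 22.5-fold in Scid.adh.2C2 and 14.9 kb from the nearest pre-B peak. Whether an Eed peak was missed in the pre-B list was not tested.

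Other homeobox genes resembled the Hox genes in their low share, beside 45.5% of all protein-coding genes in Scid.adh.2C2 and 48.2% in pre-B cells. None of the 6 ParaHox genes Cdx1, Cdx2, Cdx4, Gsx1, Gsx2 and Pdx1, relatives of the Hox genes outside the clusters, was marked in either line. Of 42 other Antp-class homeobox genes, 2 were marked in Scid.adh.2C2 (4.76%, Wilson interval 1.32 to 15.8%) and 3 in the pre-B line (7.14%, 2.46 to 19.01%). Dlx1 was marked in both lines, with 44.2-fold and 33.4-fold peaks, Dlx2 in Scid.adh.2C2 only at 27.7-fold, and Dlx6 and En2 in the pre-B line only at 10.3-fold and 8.13-fold. The Dlx1 peaks were above every Hox peak of the same list. The lineage of both lines was seen in their markers, since all 11 T cell progenitor markers were marked in Scid.adh.2C2 and 4 in pre-B cells, all 9 B cell progenitor markers in the pre-B line and 1, Vpreb1, in Scid.adh.2C2, and none of 5 myeloid markers in either. The T cell markers in pre-B cells (36.4%, Wilson interval 15.2 to 64.6%) could not be told apart from the 48.2% of all protein-coding genes.

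**Figure D5:**
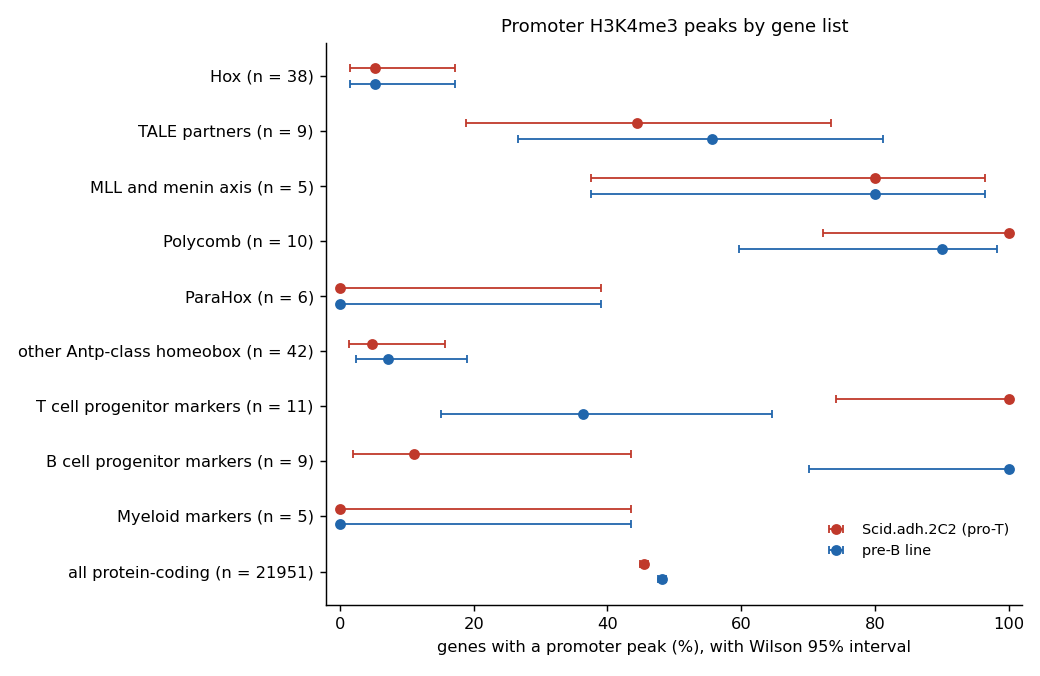
Share of genes with a promoter peak in each gene list (%, x axis), with Wilson 95% intervals, for Scid.adh.2C2 (red) and the pre-B line (blue). The Hox genes lie at 5.26% in both lines, beside 45.5% and 48.2% of all protein-coding genes and 80.0% of the MLL and menin list.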

How the data were processed

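H3K4me3 ChIP-seq peaks of Scid.adh.2C2 and the pre-B line were used as deposited. The authors trimmed reads with Trim Galore 0.6.7, mapped them to mm10 (GRCm38) with Bowtie2 2.4.4, called narrow peaks with MACS2 2.2.7.1 at a q-value threshold of 0.05 and combined the libraries by the irreproducible discovery rate (IDR) at 0.05. Each peak has a deposited IDR score, fold enrichment (a ratio) and −log10 of its p-value and q-value, which were compared only within a list. Input libraries entered only through the peak calling of the authors.

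Of the files, both peak lists were used and no per-sample column was left unmatched. TSSs came from GENCODE M21, and sequences from the GRCm38.p6 genome and RefSeq promoters. The Hox genes, the gene lists and the naming rule were chosen with earlier results of these data known. The rule names every Hox gene, non-Hox cluster genes with a peak, the 2 nearest protein-coding genes on each side, and members of the TALE and MLL lists or marked in 1 line only (for the remaining lists). Lineage markers, Dlx1, Hotair, the other antisense transcripts and the microRNA genes fall outside it and were named after their values were seen. No test was made, since each line has 1 combined list. Shares carry Wilson 95% intervals, and no depth was known. The marking function was tested on simulated data, where 100% of 1216 isolated promoters given a peak and 0% of 1844 given a peak outside the window were called. Alternatives were other windows, peak filters, TSS choices, overlap with the gene body, merged peaks and wider clusters. The scripts ran under Python 3.11.15 with pysam 0.24.0, pandas 2.3.3, numpy 2.4.6, matplotlib 3.10.9 and scipy 1.17.1. Values of 1 TALE gene are not reported here. Other assays of the study were not analysed here.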

Additional observations from a re-analysis of the deposited data

How the results depend on the processing

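The count of Hox genes marked in Scid.adh.2C2 fell from 2 to 1, and with it the count in that line only, in 5 settings. Hoxd12 was lost with a window of 1000 bp, with the summit required in the window and with peaks at an IDR score of 1000 only. Hoxc6 was lost with the TSSs of protein-coding transcripts only. It is not among the 22 of 38 genes with a RefSeq TSS, so that the count of 1 with these TSSs is not a loss of its mark. The count in the pre-B line fell to 1, and with it the count in that line only, with peaks of at least 10-fold enrichment (Hoxa7 lost), with an IDR score of 1000 (Hoxa3 lost) and with the RefSeq TSSs (Hoxa7 lost). With equal numbers of peaks in both lists both pre-B counts were 0.

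With a window of 5000 bp, 5 Hox genes were marked in Scid.adh.2C2 and 6 in pre-B cells, 4 in the latter only and 2, Hoxd3 and Hoxd4, in both lines, where 47.3% and 50.0% of all protein-coding genes were marked. With peaks anywhere in the gene body, 4 Hox genes were marked in Scid.adh.2C2, 4 in pre-B cells and 2 in both lines. In this setting 46.9% and 49.9% of all protein-coding genes were marked in Scid.adh.2C2 and the pre-B line. In both settings Hoxd3 and Hoxd4 rest on the same shared peak at Hoxd3os1. The most upstream TSS gave the main counts.

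Covered bases of Hoxa in the pre-B line were 759 at 10-fold or more, 817 at an IDR score of 1000 and 0 with equal numbers, and those of Hoxd in the pre-B line were 0 at 10-fold or more and with equal numbers. Those of Hoxd in Scid.adh.2C2 were 415 at an IDR score of 1000. Peaks in Hoxa of the pre-B line numbered 1 at 10-fold or more and 0 with equal numbers, those in Hoxd of the pre-B line 0 in both settings, and those in Hoxd of Scid.adh.2C2 1 at 10-fold or more. In total 36 values moved by over 1.5 times and 70 did not. Some of the 70 could not move, since a main value of 0 stays 0 in settings that only remove or merge peaks. The 70 are therefore no measure of how stable the results are. The cause was not tested beyond what each setting removes. No paired analysis was possible because each line has 1 combined list. The depth was unknown, so that what the peak calling missed could not be estimated.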
